A study of Mus musculus with 8 samples.

Results

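The 31 genes of DNA replication and S phase named here were taken by symbol, and 29 of them were matched by Ensembl identifier among the 54018 identifiers of the deposited table; Gins2 and Cdt1 were not analysed here. No measured value entered the rule, but the genes were chosen with earlier results of these data known. RNA abundance was measured by RNA sequencing of polyadenylated RNA in 8 libraries, each from mononuclear cells of the spleen of leukaemic C57BL/6 mice. In 4 libraries (Kdm1aKD;Eµ-TCL1A, called knockdown; replicates 1, 2, 5 and 4) a doxycycline-inducible construct to lower the histone demethylase Kdm1a was combined with the Eµ-TCL1A transgene. The other 4 libraries (Eµ-TCL1A, called control; replicates 1 to 4) carried the transgene alone. All 8 therefore carry Eµ-TCL1A, which drives the human TCL1A oncogene from an immunoglobulin enhancer in B cells and gives a disease like chronic lymphocytic leukaemia. The leukaemic mice of the study received doxycycline to induce the knockdown; whether the control mice received it, the ages, and which cells express the knockdown construct are not stated in the labels. The labels do not tie each library to a separate animal, so p-values here reflect library-to-library spread, which may be technical.

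To copy its genome once per division, a cell loads the ring of the MCM2 to MCM7 proteins onto DNA in G1, with CDC6 and CDT1 as loaders, and in S phase converts the ring into an active helicase with CDC45 and the GINS proteins. DNA polymerase alpha with its primase starts each strand, the sliding clamp PCNA holds the later polymerases, and ribonucleotide reductase and thymidylate synthase supply the nucleotides. Transcription of most of these genes peaks around the G1 to S transition under the E2F family of transcription factors, which the retinoblastoma proteins hold in check. In chronic lymphocytic leukaemia most circulating cells rest, and division takes place mainly in lymphoid tissue such as the spleen.

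The promoters of several of these genes are shown because the genes lay on the same side of the controls together. RefSeq start sites (GRCm38.p6) with 250 bases before and 50 after them were given for 23 of the 29 genes. The letters TTTNNCGC (GCGNNAAA on the other strand), a relaxed form of the site that E2F factors bind, occurred in the windows of 10 of the 23 genes, or 43.5%: Cdc6, Cdca7, Clspn, Hells, Mcm3, Mcm5, Mcm6, Mcm7, Pola1 and Tyms. Of all 27025 genes with such windows, 5.93% had a match. The letters CCAAT, read on the other strand as ATTGG, the core of the site of the factor NF-Y, occurred in 14 of the 23, or 60.9%, against 41.1% of all genes. A match of letters describes the sequence and does not show that a factor was bound. In 7 genes a TTTNNCGC match lay in the 170 bases before the start, printed here 5′ to 3′ on the gene's own strand in GRCm38.p6, with both kinds of match in capitals. Chaf1b, the gene with the largest change of the 29, had neither match and is printed for comparison.
Mcm6 (chr1:128359706-128359875, minus strand): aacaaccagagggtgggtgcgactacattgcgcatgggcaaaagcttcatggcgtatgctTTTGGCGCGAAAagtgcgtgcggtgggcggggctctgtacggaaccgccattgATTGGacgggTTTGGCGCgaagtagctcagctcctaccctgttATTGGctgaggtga
Cdca7 (chr2:72476049-72476218, plus strand): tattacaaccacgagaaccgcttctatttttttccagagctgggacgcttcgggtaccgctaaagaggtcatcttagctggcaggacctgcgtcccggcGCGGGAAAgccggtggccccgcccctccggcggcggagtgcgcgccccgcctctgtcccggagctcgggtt
Mcm7 (chr5:138171884-138172053, minus strand): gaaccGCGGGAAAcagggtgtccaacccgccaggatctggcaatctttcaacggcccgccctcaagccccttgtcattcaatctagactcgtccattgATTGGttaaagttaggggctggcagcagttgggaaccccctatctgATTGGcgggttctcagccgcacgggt
Mcm5 (chr8:75109339-75109508, plus strand): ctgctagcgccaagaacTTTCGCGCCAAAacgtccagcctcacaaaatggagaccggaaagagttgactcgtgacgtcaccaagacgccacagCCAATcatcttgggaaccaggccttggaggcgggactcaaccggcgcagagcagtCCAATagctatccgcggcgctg
Cdc6 (chr11:98907981-98908150, plus strand): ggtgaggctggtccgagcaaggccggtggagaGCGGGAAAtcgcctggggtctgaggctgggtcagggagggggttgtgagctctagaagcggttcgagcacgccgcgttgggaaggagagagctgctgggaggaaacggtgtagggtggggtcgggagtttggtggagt
Chaf1b (chr16:93883731-93883900, plus strand): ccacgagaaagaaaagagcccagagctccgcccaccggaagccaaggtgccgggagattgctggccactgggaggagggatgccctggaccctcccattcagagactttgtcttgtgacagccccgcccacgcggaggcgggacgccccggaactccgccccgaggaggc
Hells (chr19:38930820-38930989, plus strand): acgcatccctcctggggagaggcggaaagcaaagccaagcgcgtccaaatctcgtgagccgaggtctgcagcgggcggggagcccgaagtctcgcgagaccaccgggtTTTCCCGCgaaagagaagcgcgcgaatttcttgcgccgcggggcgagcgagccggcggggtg
Pola1 (chrX:93632156-93632325, minus strand): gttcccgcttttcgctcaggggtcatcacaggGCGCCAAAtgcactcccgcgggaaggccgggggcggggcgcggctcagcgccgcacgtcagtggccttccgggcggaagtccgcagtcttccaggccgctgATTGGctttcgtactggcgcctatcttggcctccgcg
The Mcm6 window held 3 TTTNNCGC matches, of which 2 lay in opposite directions and shared 4 bases, starting 110 and 106 bases before the start. The Mcm5 window had the same arrangement, with matches starting 153 and 149 bases before the start. Pola1 and Cdc6 had 1 match each, both starting 138 bases before the start, on the opposite strand to the gene. Mcm3, Clspn and Tyms had their matches after the start site only, and Mcm7 had a further one there. Capitals in Mcm5, Mcm6, Mcm7 and Pola1 also mark CCAAT, and within the printed bases no CCAAT match overlapped a TTTNNCGC match.

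Values are FPKM, fragments scaled by transcript length and by library size, so levels of different genes may be set side by side. Between 39400000 and 46300000 fragments per library were estimated from the steps between low values. The lowest estimate for a member in a library was about 298 fragments (Gins1, by its whole exon length), so counting error was small beside the spread between libraries. No member was listed at 0 in a library. Kdm1a, the targeted gene, had 20.2, 21.0, 15.6 and 15.5 FPKM in knockdown replicates 1, 2, 5 and 4, against 24.2, 21.2, 24.1 and 31.1 FPKM in control replicates 1 to 4. The groups did not overlap, by a narrow margin between knockdown replicate 2 and control replicate 2. The log2 change was −0.45 (95% interval −0.86 to −0.05; limma adjusted p = 0.223), and the exact permutation p was 0.0286 (two-sided, 70 assignments), the smallest that 4 against 4 libraries can give. B cell markers were present in every library, at differing levels. Cd79a had 355 to 922 FPKM in knockdown and 910 to 1300 FPKM in control libraries. Ebf1 was much lower, with 5.25 to 21.7 FPKM in knockdown and 16.6 to 25.6 FPKM in control libraries. Xist, which silences one X chromosome in females, had 94.9 to 175 FPKM across the knockdown group, 110 FPKM in the first control and no more than 0.128 FPKM in the other 3, so that group and sex nearly coincide and cannot be told apart beyond 1 control library. Because the samples are bulk tissue, more dividing cells and more RNA per cell cannot be told apart.

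All 29 genes had a higher mean in the knockdown than in the control libraries, and none passed the threshold. The ratio of means ran from 1.36 for Ung to 3.84 for Chaf1b, with a median of 2.04. The median log2 change was 0.91, against 0.13 over all 12890 genes tested, and 0 members had a Benjamini-Hochberg adjusted p under 0.05 by limma, fitted to log2(FPKM + 1) over all of these genes, while 1.63% of all genes passed as higher. At an unadjusted limma p under 0.05, 24 of the 29 were higher, or 82.8%, against 15.8% of all genes. The lowest knockdown library lay above the highest control library in 12 of the 29, or 41.4%, against 11.2% of all genes. A change above 0 was found in 63.7% of all genes. After median-of-ratios scaling the median over all genes was −0.01, a shift of more than 0.1, and that over the members 0.74. The members' median thus lay 0.76 above that of all genes, against 0.77 with FPKM as deposited, and 6 members were without overlap after that scaling, where 6.89% of all genes were.

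**Figure D1:**
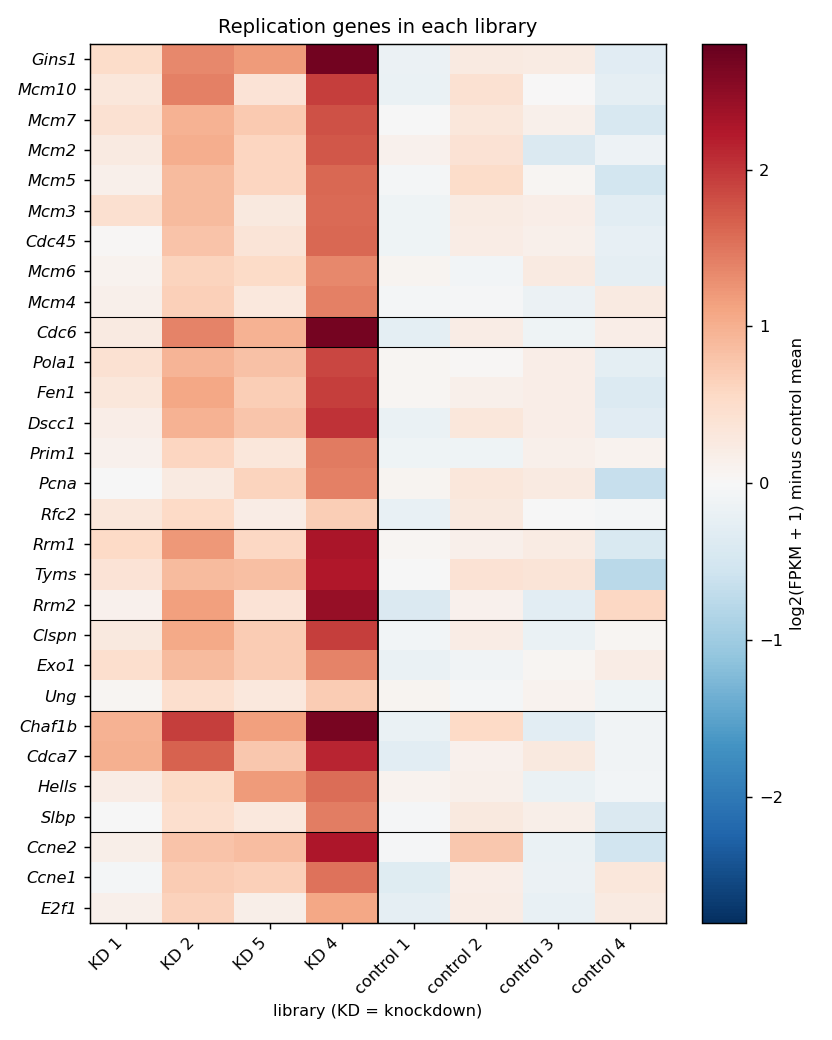
Heat map of log2(FPKM + 1) minus the mean of the 4 control libraries, for the 29 genes (rows, by role) in the 4 knockdown libraries (KD, left) and the 4 control libraries (right). Knockdown replicate 4 holds the highest value of each of the 29 genes, and knockdown replicate 1 is the palest of the knockdown columns.

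The size of the difference depended on the library. Knockdown replicate 4 had the highest value of all 8 libraries in each of the 29 genes, where it was highest in 30.7% of all genes. It exceeded knockdown replicate 1 by between 1.29-fold (Rfc2) and 5.72-fold (Cdc6), with a median of 2.82. The knockdown libraries followed the order 4, 2, 5, 1 in 23 of the 29 genes, an order that 13.5% of all genes shared. Knockdown replicates 2 and 5 lay above every control in 28 and 25 of the genes, while knockdown replicate 1 did so in 13, against 41.2%, 30.1% and 28.0% of all genes. The knockdown libraries varied more than the controls in each of the 29 genes, with a median coefficient of variation of 47.3% in knockdown and 19.3% in control libraries, where over all genes the medians were 25.0% and 23.9%. Without knockdown replicate 4 the median log2 change was 0.63, the median ratio of means 1.57, 12 genes were without overlap (12.8% of all genes), 16 were higher at an unadjusted limma p under 0.05 (12.3% of all genes) and 0 passed (1.47% of all genes). Without control replicate 4, the lowest library for 16 of the 29 genes and for 37.5% of all genes, the median was 0.84. Against control replicate 1 alone, the control that shares the Xist pattern of the knockdown libraries, the median was 0.95 by the limma fit with sex as a covariate, and every knockdown library was higher in 27 of the 29 genes, against 27.4% of all genes. In that fit the control side is 1 library, assumed to vary like the others, and 4 members were at an unadjusted limma p under 0.05, against 3.34% of all genes as higher.

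Among the genes of the replicative helicase, all 9 measured members were higher in knockdown libraries on average. All 9 were so at an unadjusted limma p under 0.05, against 15.8% of all genes. The groups were without overlap in 3, against 11.2% of all genes. Mcm7, a subunit of the MCM ring (ENSMUSG00000029730, chromosome 5, 138164583 to 138172422, minus strand, in GRCm38 by GENCODE M21), showed 62.5, 91.7, 77.6 and 162 FPKM in knockdown replicates 1, 2, 5 and 4, against 45.8, 57.7, 50.9 and 33.8 FPKM in control replicates 1 to 4. Every knockdown library thus lay above every control, the nearest pair being knockdown replicate 1 and control replicate 2. Mcm7 thus had a log2 change of 0.98 (95% interval 0.32 to 1.65; limma adjusted p = 0.137). Gins1, a subunit of the GINS complex that activates the ring, had the largest change of the helicase genes, with 9.57, 17.6, 15.9 and 47.0 FPKM in knockdown and 5.52, 7.80, 7.61 and 4.90 FPKM in control libraries. The groups did not overlap, and knockdown replicate 4 stood far above the other 3. The log2 change of Gins1 was 1.44 (95% interval 0.54 to 2.35; limma adjusted p = 0.119), and its ratio of means was 3.49, or 2.22 without knockdown replicate 4.

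Mcm6, the helicase gene with the highest mean in the control libraries, had 63.3, 91.8, 86.5 and 151 FPKM in knockdown and 62.1, 55.7, 71.1 and 49.8 FPKM in control libraries. Here knockdown replicate 1 lay within the control range. Mcm4 had the smallest change of the group, with 33.9, 49.8, 38.2 and 83.4 FPKM in knockdown and 29.5, 30.1, 27.7 and 37.1 FPKM in control libraries, a log2 change of 0.63 (95% interval 0.02 to 1.23; limma adjusted p = 0.247). Mcm3 was the remaining helicase gene without overlap, with 54.2 to 137 FPKM in knockdown and 36.6 to 53.1 FPKM in control libraries. The log2 changes of Mcm2, Mcm3, Mcm5, Cdc45 and Mcm10 were 0.91, 0.80, 0.81, 0.70 and 1.01. Mcm10 and Cdc45, which join the ring when it fires, had lower levels than the 6 ring subunits, with knockdown means of 19.6 and 20.6 FPKM against control means of 8.29 and 11.3 FPKM. The summed level of the 6 ring subunits was 306, 462, 370 and 771 FPKM in knockdown libraries and 254, 300.2, 269 and 215 FPKM in control libraries. Within a library the most and least abundant of the 6 differed by 1.84-fold to 2.27-fold in knockdown and by 1.87-fold to 3.25-fold in control libraries, and Mcm6 was the most abundant of the 6 in 6 of the 8 libraries.

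Cdc6, which loads the ring onto origins, had 12.2, 28.0, 20.5 and 69.9 FPKM in knockdown and 8.13, 11.8, 9.14 and 11.5 FPKM in control libraries. The groups did not overlap, although knockdown replicate 1 and control replicate 2 nearly met. Cdc6 had a log2 change of 1.33 (95% interval 0.35 to 2.30; limma adjusted p = 0.160), and the ratio of means of 3.22 was 2.0 without knockdown replicate 4.

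**Figure D2:**
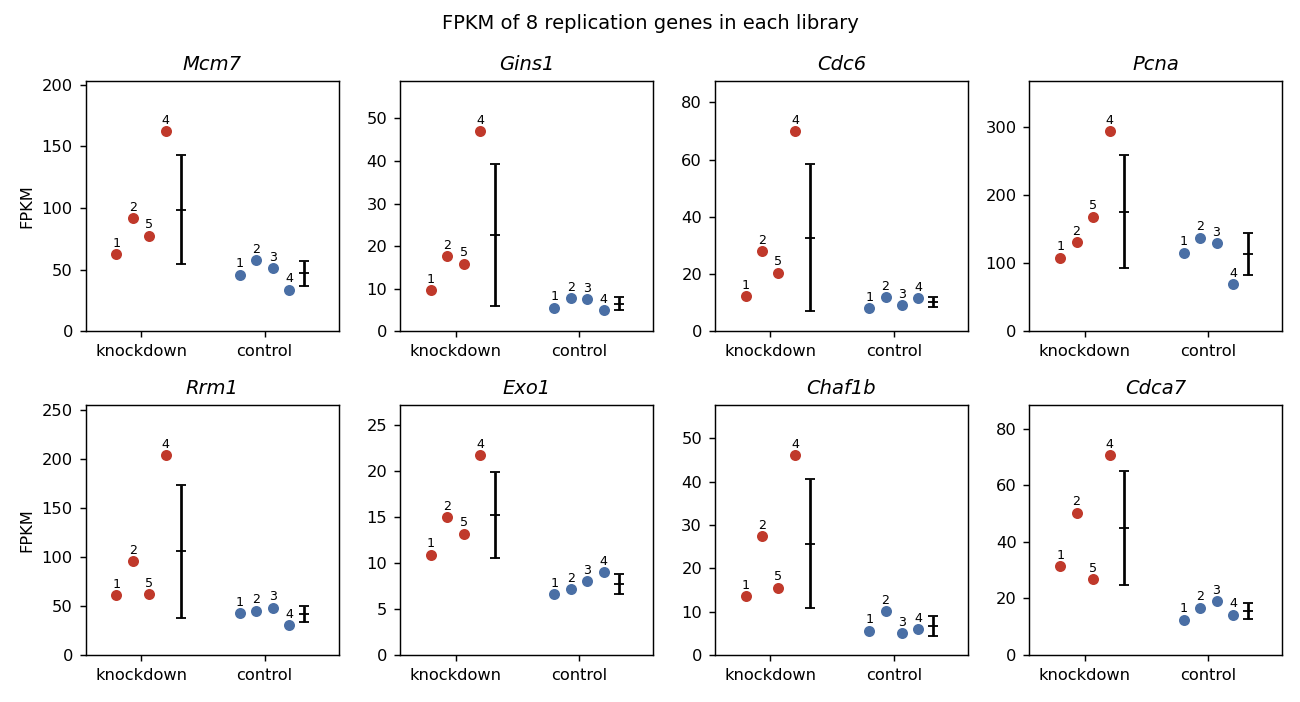
FPKM of 8 genes (1 panel each, linear axis from 0) in the knockdown libraries (red, left) and control libraries (blue, right), numbered by replicate, with the mean and SD of each group as a black bar (n = 4). Groups do not overlap in any panel but that of Pcna, where knockdown replicates 1 and 2 lie within the control range, and knockdown replicate 4 is the highest point of each panel.

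Of 6 genes of DNA synthesis, 5 were higher at an unadjusted limma p under 0.05, against 15.8% of all genes. Of the 6, 2 were without overlap, Pola1 and Fen1, against 11.2% of all genes. Pola1, the catalytic subunit of DNA polymerase alpha, had 9.52, 14.1, 12.8 and 27.8 FPKM in knockdown and 7.18, 6.99, 7.92 and 5.50 FPKM in control libraries, a log2 change of 1.01 (95% interval 0.36 to 1.67; limma adjusted p = 0.124). Fen1, the nuclease that trims Okazaki fragments, had 29.2, 49.9, 37.8 and 91.5 FPKM in knockdown and 24.2, 25.6, 26.3 and 17.5 FPKM in control libraries. For both genes the lowest knockdown library was replicate 1 and the lowest control was replicate 4. Prim1, the primase that works with Pola1, had a smaller log2 change, 0.62. Pcna, the sliding clamp and the most abundant of the 29 genes, had 108, 131, 169 and 294 FPKM in knockdown and 116, 138, 130 and 69.6 FPKM in control libraries. Knockdown replicates 1 and 2 lay within the control range, and the log2 change of Pcna was 0.57 (95% interval −0.18 to 1.32; limma adjusted p = 0.372, the largest of the 29). Its ratio of means was 1.55, and 1.20 without knockdown replicate 4.

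Rfc2, a subunit of the loader that opens the clamp, had the smallest change of the synthesis genes, with 92.1, 108, 85.5 and 119 FPKM in knockdown and 63.6, 88.7, 73.2 and 70.4 FPKM in control libraries. It varied least among the knockdown libraries, with a coefficient of variation of 15.0%, and its log2 change of 0.45 had a 95% interval of 0.05 to 0.84 (limma adjusted p = 0.221). Dscc1, a subunit of an alternative clamp loader and the least abundant member, had 4.06, 7.70, 6.63 and 17.2 FPKM in knockdown and 2.94, 4.55, 4.06 and 2.58 FPKM in control libraries. Its log2 change was 0.99, and knockdown replicate 1 lay within the control range. Exons of Ccne2, Cdc45, Dscc1, Fen1, Mcm7, Rfc2 and Slbp overlap an annotated gene on the opposite strand, and whether strand was used in counting is not given in the sources used here, so the values of these 7 genes are less certain.

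The 3 genes of nucleotide supply had log2 changes close together, from 1.03 to 1.16. Rrm1, the large subunit of ribonucleotide reductase, had 61.0, 95.6, 61.8 and 204 FPKM in knockdown and 42.9, 45.2, 48.3 and 30.0 FPKM in control libraries. The groups did not overlap, and the log2 change of Rrm1 was 1.16 (95% interval 0.34 to 1.98; limma adjusted p = 0.148). Rrm2, the small subunit, whose level follows S phase, had 57.4, 118, 69.4 and 293 FPKM in knockdown and 39.9, 57.3, 43.0 and 79.1 FPKM in control libraries. It varied most of the 29 genes among the knockdown libraries, with a coefficient of variation of 80.9%, and control replicate 4 lay above knockdown replicates 1 and 5. Rrm2 had a log2 change of 1.03 with a 95% interval of −0.03 to 2.08 (limma adjusted p = 0.270). Tyms, thymidylate synthase, had 34.3, 48.9, 47.3 and 127 FPKM in knockdown and 25.8, 34.9, 33.4 and 15.1 FPKM in control libraries, with knockdown replicate 1 just under control replicate 2. Control replicate 4 was thus the lowest of the controls for Rrm1 and Tyms and the highest for Rrm2.

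Of 3 genes of repair and the S phase checkpoint, 2 were without overlap, against 11.2% of all genes. Exo1, a 5′ to 3′ exonuclease of mismatch repair and end resection, had 10.9, 15.0, 13.2 and 21.8 FPKM in knockdown and 6.64, 7.13, 8.02 and 9.02 FPKM in control libraries. Every knockdown library lay above every control, and the log2 change of Exo1 was 0.86 (95% interval 0.37 to 1.36; limma adjusted p = 0.0879). Clspn, the adaptor that passes the replication stress signal to the kinase CHEK1, had 7.82, 14.2, 10.8 and 26.6 FPKM in knockdown and 5.92, 7.39, 5.38 and 6.52 FPKM in control libraries, a log2 change of 0.99. Ung, which removes uracil from DNA and in B cells also acts in antibody class switching, had the smallest change of the 29 genes. It had 8.57, 11.8, 10.4 and 14.0 FPKM in knockdown and 8.72, 7.84, 8.89 and 7.49 FPKM in control libraries. Its log2 change was 0.38 (95% interval −0.02 to 0.79; limma adjusted p = 0.282), and it varied least of the 29 among controls, with a coefficient of variation of 8.20%.

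The smallest p-values of the 29 belonged to 2 genes of chromatin on newly made DNA. Cdca7 (ENSMUSG00000055612, chromosome 2, 72476159 to 72486893, plus strand), a partner of the remodeller HELLS and a gene that MYC activates, had 31.5, 50.3, 26.7 and 70.8 FPKM in knockdown and 12.5, 16.7, 18.9 and 14.2 FPKM in control libraries. Even the lowest knockdown library, replicate 5, lay well above the highest control, replicate 3. The log2 change of Cdca7 was 1.38 (95% interval 0.71 to 2.05; limma adjusted p = 0.0558). Chaf1b (ENSMUSG00000022945, chromosome 16, 93883901 to 93906115, plus strand), a subunit of the assembly factor that places histones behind the fork, had 13.6, 27.5, 15.5 and 46.2 FPKM in knockdown and 5.60, 10.1, 5.12 and 6.04 FPKM in control libraries. The log2 change of Chaf1b was 1.67 (95% interval 0.84 to 2.50; limma adjusted p = 0.0602), the largest of the 29. For these 2 genes knockdown replicate 1, which lay above every control in 13 of the 29, was above the highest control too. The ratios of means without knockdown replicate 4 were 2.32 for Cdca7 and 2.82 for Chaf1b.

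Hells, the remodelling ATPase that works with CDCA7, had 12.6, 15.9, 25.8 and 33.6 FPKM in knockdown and 11.6, 12.0, 9.36 and 10.1 FPKM in control libraries, a log2 change of 0.88 (95% interval 0.24 to 1.51; limma adjusted p = 0.158). It was without overlap, with knockdown replicate 5 above replicate 2, unlike in most members. Slbp, which binds the stem-loop of histone messages, had 58.0, 81.0, 71.8 and 159 FPKM in knockdown and 57.2, 70.6, 66.0 and 43.7 FPKM in control libraries. The log2 change of Slbp was 0.54 with a 95% interval of −0.14 to 1.22 (limma adjusted p = 0.352), and its ratio of means without knockdown replicate 4 was 1.18, the lowest of the 29.

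The 3 regulators of the G1 to S step all had overlapping groups. Ccne1, a cyclin that activates CDK2, had 21.8, 37.6, 36.4 and 66.1 FPKM in knockdown and 17.6, 25.7, 19.9 and 28.4 FPKM in control libraries. Ccne2, its close relative, had 6.96, 11.4, 12.1 and 33.2 FPKM in knockdown and 5.97, 11.0, 5.27 and 3.92 FPKM in control libraries, and varied most of the 29 among controls, with a coefficient of variation of 47.3%. In both genes knockdown replicate 1 was within the control range and knockdown replicate 4 far above it. The log2 changes of Ccne1 and Ccne2 were 0.71 and 1.02 (limma adjusted p = 0.251 and 0.244). E2f1, an activator of the E2F family and itself a target of it, had 7.87, 11.6, 8.05 and 16.0 FPKM in knockdown and 5.83, 8.28, 6.00 and 8.57 FPKM in control libraries, a log2 change of 0.50 (95% interval −0.05 to 1.06; limma adjusted p = 0.298).

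**Figure D3:**
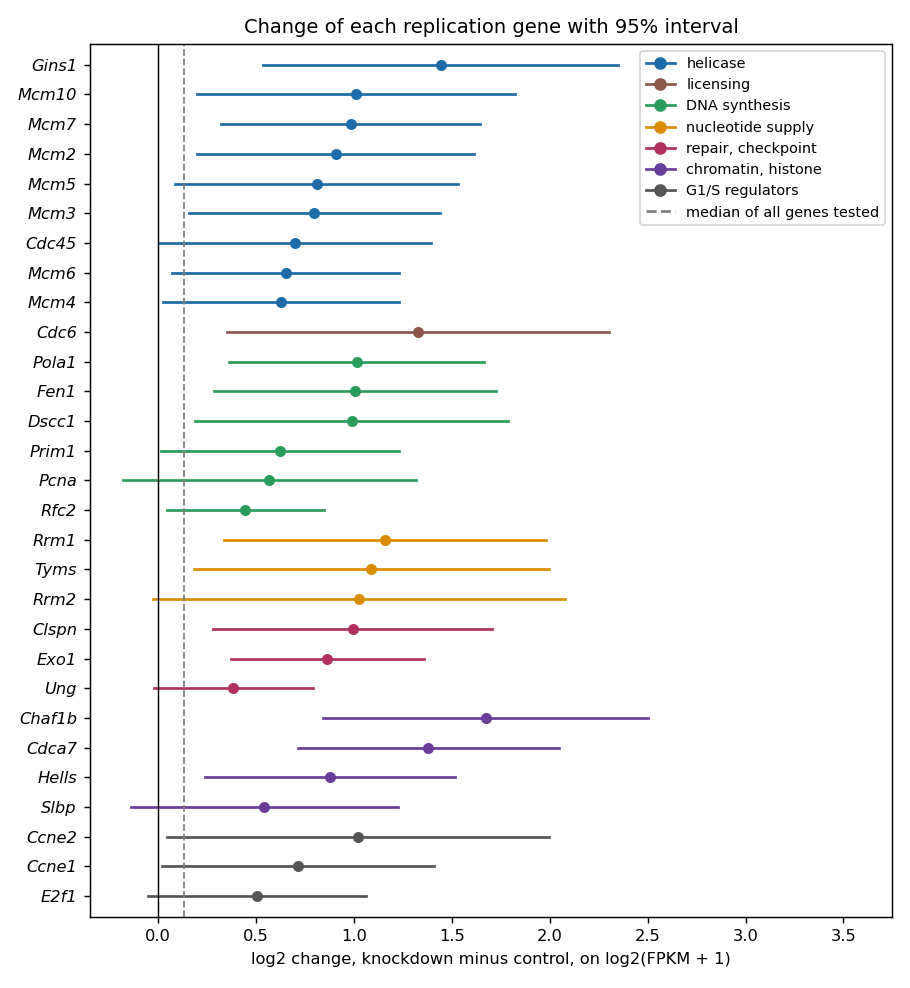
Log2 change, knockdown minus control, on log2(FPKM + 1) for each of the 29 genes (points) with its 95% interval from limma (lines), coloured by role and ordered by size within a role; the dashed line is the median of all 12890 genes tested. All points lie right of 0, from 0.38 for Ung to 1.67 for Chaf1b, and the intervals of Pcna, Rrm2, Ung, Slbp and E2f1 include 0.

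Other genes of the same processes lay on the same side. Of 51 further replication genes (origin recognition, polymerases, clamp loader, RPA, nucleotide and chromatin factors), all 51 had a positive log2 change with a median of 0.67, 33 were higher at an unadjusted limma p under 0.05 (64.7%, against 15.8% of all genes), and 23 were without overlap (45.1%, against 11.2%). The 1 gene that rose past the threshold is a share near the 1.63% of all genes. That gene was Dna2, a nuclease and helicase of Okazaki fragments and stalled forks, with 9.11, 14.1, 8.38 and 21.8 FPKM in knockdown and 3.93, 2.88, 3.34 and 2.55 FPKM in control libraries (log2 change 1.70, limma adjusted p = 0.0235). Chaf1a, a partner subunit of Chaf1b, had 9.33, 16.2, 12.4 and 23.4 FPKM in knockdown and 5.45, 7.61, 5.11 and 6.15 FPKM in control libraries (log2 change 1.15, limma adjusted p = 0.0698). Chaf1a and Chaf1b were thus both without overlap. Tk1, thymidine kinase, had a knockdown mean of 89.5 ± 57.8 FPKM and a control mean of 28.5 ± 4.02 FPKM (SD, n = 4 each; log2 change 1.43).

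The 20 mitosis genes listed were likewise all positive in log2 change, with a median of 0.89, 13 at an unadjusted limma p under 0.05 (65.0%, against 15.8% of all genes), 8 without overlap (40.0%, against 11.2%) and 0 past the threshold. Anln, Ccnb1 and Tpx2, genes of cytokinesis, entry into mitosis and the spindle, had log2 changes of 1.44, 1.47 and 1.03. Mki67, the proliferation marker, had 54.8, 84.6, 55.2 and 170 FPKM in knockdown and 44.1, 51.2, 46.0 and 82.3 FPKM in control libraries, a log2 change of 0.58 (95% interval −0.24 to 1.40; limma adjusted p = 0.402). Of 15 pocket protein and E2F genes, 14 had a positive change with a median of 0.35, and 3 were higher at an unadjusted limma p under 0.05 (a share near the 15.8% of all genes): Rbl1, Tfdp1 and E2f8, with log2 changes of 0.56, 0.74 and 1.03. Rb1, the retinoblastoma gene, had a knockdown mean of 38.5 ± 4.79 FPKM and a control mean of 41.1 ± 7.77 FPKM (SD, n = 4 each), and the repressor gene E2f4 had a log2 change of 0.46 (95% interval −0.14 to 1.06). Of 10 genes of the replication stress checkpoint, the median log2 change was 0.19, near that of all genes, and 2 were at an unadjusted limma p under 0.05 (a share also near that background), Cdc25a and Chek1, with log2 changes of 0.74 and 0.77. Hus1, of the clamp that senses damaged forks, had one of 0.37. Cdkn1a, the CDK inhibitor that p53 activates, had a log2 change of 0.23 (95% interval −0.19 to 0.64).

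Per library, the median over the 29 genes of log2(FPKM + 1) minus the control mean was 0.26, 0.89, 0.62 and 1.73 in knockdown replicates 1, 2, 5 and 4, against −0.07, 0.21, 0.10 and −0.22 in control replicates 1 to 4. The same quantity over the mitosis genes was 0.27, 1.01, 0.34 and 1.98 in knockdown libraries and −0.10, 0.09, 0.01 and 0.08 in control libraries. Knockdown replicate 5 was thus closer to the controls by the mitosis genes than by the replication genes; this difference was not tested. Over all genes tested the median was 0.11, 0.21, 0.11 and 0.11 in knockdown libraries and 0.06, 0.00, 0.03 and −0.12 in control libraries.

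**Figure D4:**
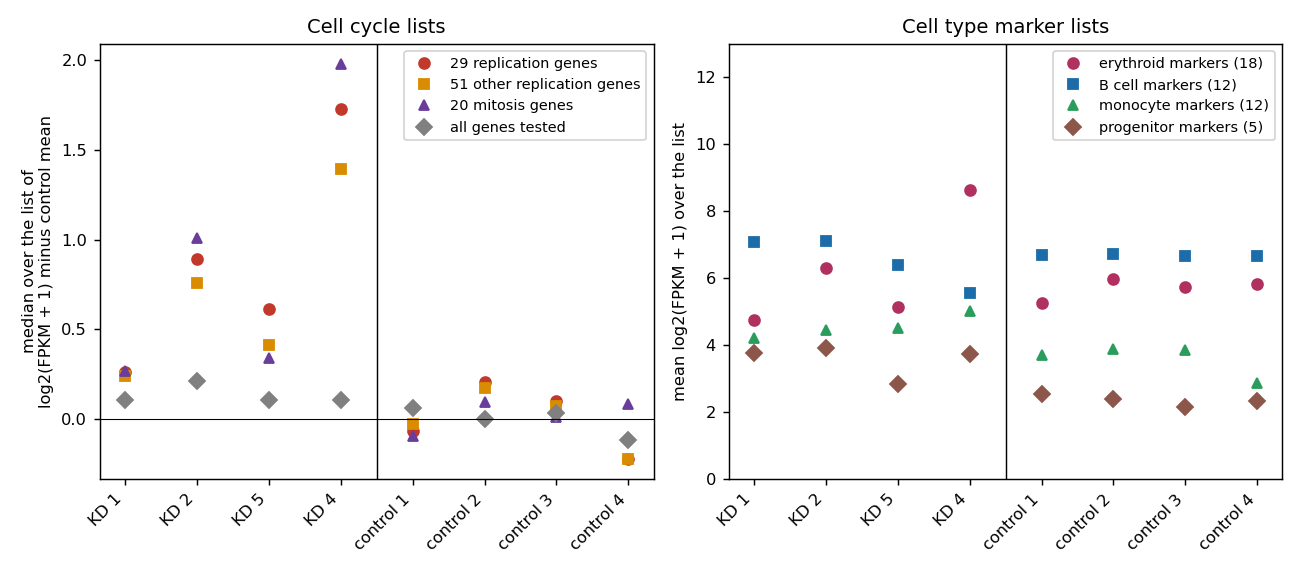
Left, the median over each list of log2(FPKM + 1) minus the control mean in each library; right, the mean log2(FPKM + 1) of 4 lists of cell type markers, with knockdown libraries (KD) left and control libraries right of the line. Replication and mitosis genes are highest in knockdown replicate 4, at 1.73 and 1.98, which also has the highest erythroid level (8.63) and the lowest B cell level (5.55).

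Markers of other cell types also differed between the libraries. The 18 erythroid markers had a mean log2 level of 4.76, 6.32, 5.13 and 8.63 in knockdown replicates 1, 2, 5 and 4, against 5.25, 5.96, 5.73 and 5.83 in control replicates 1 to 4, and their summed level was 1171 to 31679 FPKM in knockdown and 3314 to 8577 FPKM in control libraries. Of the 18, 1 rose past the threshold, where 1.63% of all genes did. That marker was Gata1, the red cell and megakaryocyte factor, with 21.2, 51.9, 30.1 and 130 FPKM in knockdown and 6.44, 6.77, 5.46 and 5.90 FPKM in control libraries. Within the knockdown group 16 of the 18 followed the order 4, 2, 5, 1, the order of 23 of the 29 replication genes, and Hba-a1 and Hba-a2 did not. The list was split in direction, with 12 log2 changes above 0 and 6 below 0, those of the globin genes Hbb-bs, Hbb-bt, Hba-a1 and Hba-a2 and of Alas2 and Slc4a1. Without knockdown replicate 4 the ratio of means was below 1 for 8 of the 18, and 0.17 for Hbb-bs. Groups were without overlap, higher in knockdown, for 4 of the 18 (11.2% of all genes): Gata1, Klf1, Epor and Car1. The lowest knockdown values of Klf1, Epor and Car1, all in replicate 1, were 26.6, 10.9 and 91.3 FPKM. The highest control values of these genes were 20.6, 6.30 and 75.1 FPKM. The mean log2 level also takes in the 6 markers with log2 changes below 0. By that mean, knockdown replicates 1 and 5 had the lowest erythroid levels of the 8 libraries. Their replication medians, 0.26 and 0.62, lay above those of all 4 controls. The erythroid median of log2(FPKM + 1) minus the control mean was −0.56, 0.84, 0.74 and 2.91 in knockdown replicates 1, 2, 5 and 4. In control replicates 1 to 4 that median was −0.47, 0.22, −0.07 and 0.12. By that measure knockdown replicate 5 lay above every control and knockdown replicate 1 below them. Whether the replication genes follow the erythroid markers between the groups was not tested. With the erythroid level as a covariate the median log2 change of the 29 genes was 0.75 and all 29 were above 0. In that fit 9 passed the threshold (limma adjusted p from 0.00566 for Chaf1b), where 4.12% of all genes passed as higher, against 1.63% without the covariate. The covariate was the plain mean of a list split in direction. It therefore cannot adjust for the markers above 0 apart from those below 0, and no conclusion is drawn from it. The 12 B cell markers had a mean log2 level of 5.55 to 7.12 in knockdown and 6.66 to 6.73 in control libraries. That mean was lowest in knockdown replicate 4, and above every control in knockdown replicates 1 and 2, at 7.09 and 7.12. Their summed level was 1293 to 3432 FPKM in knockdown and 3590 to 4235 FPKM in control libraries. This list was also split, with 9 log2 changes below 0 and 3 above 0, those of Vpreb3, Fcer2a and Cr2. With the B cell level, also the mean of a split list, as a covariate the median log2 change was 0.81. In that fit 2 of the 29 passed, against 2.30% of all genes as higher.

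The 12 monocyte and macrophage markers were without overlap as a mean log2 level, at 4.21 to 5.03 in knockdown and 2.87 to 3.89 in control libraries. Their summed level was 483 to 914 FPKM in knockdown and 137 to 390.3 FPKM in control libraries. All 12 had log2 changes above 0, with a median of 0.95, and 0 of 12 passed the threshold. Of the 12, 8 were higher at an unadjusted limma p under 0.05 (15.8% of all genes were) and 2 were without overlap (11.2% of all genes were). The 5 expressed progenitor markers lay at 2.84 to 3.90 in knockdown and 2.14 to 2.54 in control libraries. Of these 5, 2 were higher past the threshold, against 1.63% of all genes. The summed level of all 7 progenitor markers was 53.6 to 111 FPKM in knockdown and 31.7 to 110 FPKM in control libraries. The 8 plasma cell markers lay at 4.24 to 5.23 in knockdown and 5.10 to 6.27 in control libraries, with 0 of 8 past the threshold and a summed level of 455 to 972 FPKM in knockdown and 943 to 1640 FPKM in control libraries. Of 5 megakaryocyte markers 4 had log2 changes above 0, and 2 were higher past the threshold, against 1.63% of all genes. Ppbp went the other way, with a log2 change of −0.63. All 12 T and NK cell markers had log2 changes above 0, with a median of 0.51, and 0 passed. The 9 neutrophil markers were split. Ngp, Camp and Ltf, of later granules, were lower past the threshold, where 0.109% of all genes were. The primary granule genes Elane, Mpo and Prtn3 had ratios of means of 4.56, 5.57 and 5.53 (limma adjusted p = 0.149, 0.0830 and 0.131). None of the erythroid, B cell, monocyte, progenitor and plasma cell markers matched was listed at 0 in a library. The part of the monocyte, progenitor and plasma cell markers in the levels of the replication genes was not tested.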

How the data were processed

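Polyadenylated RNA of splenic mononuclear cells was, per the labels' protocols, isolated by mirVana kit and read on a NovaSeq 6000. The FPKM values were used as the authors deposited them, in 1 table of 54018 identifiers and 8 columns; CASAVA and Cufflinks are named in the submitters' processing notes without versions, while aligner, build, gene models and strandedness were not given in the sources used here. The table holds no counts. FPKM of a library moves with its most abundant transcripts, and totals ran from 572660 to 762888. Identifiers were given symbols from GENCODE M21 (53865 matched). Fragments were estimated from low values of genes with 1 transcript of at least 1500 bases, of which 95.8% to 97.0% lay within 0.1 of a whole multiple.

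The 12890 genes reaching 1 FPKM in 4 or more of the 8 libraries were tested on log2(FPKM + 1) in R 4.3.3 by limma 3.58.1, its variance prior following the mean, knockdown (n = 4) against control (n = 4), with no covariate, Benjamini-Hochberg adjustment over all of them and a threshold of 0.05; fold changes on this scale understate those of low genes. The fit was tested on simulated data. Groups without overlap and ratios were counted with Python 3.11.15, pandas 2.3.3 and numpy 2.4.6, and drawn with matplotlib 3.10.9. Promoter windows are from RefSeq. The members, the lists of other genes and markers, and the tests were chosen with earlier results of these data known. All 29 matched members passed the filter and are named; of each pathway list the 3 genes with the smallest p, and Kdm1a, Mki67, E2f4, Rb1 and Cdkn1a, are named. Cell type markers were named where their level moved with a result. Alternatives changed the pseudocount (0.1 or 5), filter, scaling, test, libraries and covariates, and added a block by replicate number; sex as a covariate, read from Xist, was added after seeing the data.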

Additional observations from a re-analysis of the deposited data

How the results depend on the processing

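All 29 log2 changes stayed above 0 in each of the 21 alternatives, and the median over them ranged from 0.56 without replicate 4 of both groups to 1.12 without knockdown replicate 1. The number of members past the threshold was 0 except for 3 with array weights (5.19% of all genes as higher), 9 with the erythroid covariate and 2 with the B cell covariate, and 0 to 3 with 1 library left out (3 without knockdown replicate 1 and 2 without knockdown replicate 5, with 2.34% and 2.27% of all genes). Members without overlap were 6 after median-of-ratios scaling and 12 to 24 with 1 library left out, 24 without knockdown replicate 1 (17.7% of all genes). Members at an unadjusted limma p under 0.05 were 15 without replicate 4 of both groups (12.2% of all genes), 4 with sex as a covariate, and 15 to 28 with 1 library left out, 15 without knockdown replicate 2 (10.9% of all genes). Same-numbered libraries (1, 2 and 4) deviated with correlations of 0.16, 0.05 and −0.12 across genes, so the numbers are not taken as pairs. With the replicate block 15 members were at an unadjusted limma p under 0.05 (12.2% of all genes as higher), 0 passed and the median was 1.01. Over all genes, those past the threshold as higher and lower (210 and 14) were 22 and 2 with a pseudocount of 5, 1 and 1 without a filter, 68 and 3 with genes kept from a mean of 5 FPKM, 669 and 92 with array weights, 0 and 0 with the replicate block, 1 and 1 with sex as a covariate, and 531 and 42 with the erythroid covariate. They were 139 higher after median-of-ratios scaling, 108 higher after quantile normalization, 109 higher without replicate 4 of both groups, and 22 lower with the B cell covariate. With 1 library left out they ranged from 7 to 301 higher and from 1 to 40 lower. The causes were not tested. The log2 change of Kdm1a stayed negative in each alternative, from −0.26 with array weights to −0.62. At the estimated depth and with whole exon lengths, the lowest estimate for a member in a library was about 298 fragments. The depth fit took 180 bases off each length, so this estimate runs high.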
